A study of Brassica napus with 14 samples.

Results

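The 300 most abundant transcripts of Brassica napus seed development that carry no Arabidopsis locus were followed from the ovule to the last seed stage sampled. Members were chosen from a table of 96219 genes of cultivar DH12075. Of these, 8315 had no Arabidopsis locus in the submitters' table, and the 300 of them with the highest FPKM in any of 5 stages were taken. FPKM is the number of sequenced fragments scaled for transcript length and for the size of the library, so levels can be compared between genes per length. All plants were of DH12075 and were grown in chambers under long days, with hand-pollinated flowers. OV is whole ovules at day 0 and has 3 libraries. GLOB, HEART, MG and DS are whole seeds taken 7, 10, 28 and 35 days after fertilization, with 3 libraries each except DS, which has 2. The authors gave 1 FPKM value per gene and stage, so no value below has an error, no difference could be tested against the spread between libraries, and library depth is unknown. Whole ovules and whole seeds hold several tissues, and a change in the share of a tissue cannot be told apart from a change in RNA per cell.

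Brassica napus, oilseed rape, is an allotetraploid that joined an A and a C genome, so most genes exist as related copies on both. Arabidopsis belongs to the same plant family, and gene order is still shared over long chromosome stretches. Genes without an assigned counterpart in a close relative can be short or fast-changing coding genes, genes gained or lost in either lineage, parts of mobile elements, noncoding RNAs or faulty gene models. Seeds and reproductive tissues are known for abundant small secreted, storage and desiccation-related proteins, many of which change quickly in sequence. The table does not say which kind any member is, nor how loci were assigned.

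The members were chosen by their highest FPKM, so these levels are a description. They reached from 14.7 to 4222 FPKM, with a median of 33.1 FPKM. In all, 55 members reached 100 FPKM and 6 reached 1000 FPKM. The last members were BnaN09g56060 at 14.8 FPKM at GLOB, BnaN15g56160 at 14.7 FPKM at OV and BnaN17g02600 at 14.7 FPKM at OV. Just outside lay BnaN04g10150, BnaN13g61350 and BnaN12g29110, each at 14.6 FPKM, so the limit falls within a continuous range. Most genes without a locus were not abundant: 5892 of the 8315 (70.9%) were listed at 0 in all 5 stages and 1182 (14.2%) reached 1 FPKM in a stage. Of the 87904 genes with a locus, 19052 (21.7%) were listed at 0 throughout and 48235 (54.9%) reached 1 FPKM. The level of the last member was reached by 17031 genes with a locus (19.4% of them), called locus genes of the same level below. They had a median highest value of 32.9 FPKM, close to that of the members.

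The highest value of a member lay at DS for 94 members, at OV for 68, at HEART for 54, at MG for 49 and at GLOB for 35. As shares these are 31.3%, 22.7%, 18.0%, 16.3% and 11.7%. Among the locus genes of the same level the shares were 32.6% at DS, 8.26% at OV, 11.1% at HEART, 28.0% at MG and 19.99% at GLOB. OV and HEART thus held a larger share of the members than of these genes, and MG and GLOB a smaller one. Among all genes at 1 FPKM or more the shares were 29.6% at DS, 19.5% at OV, 13.9% at HEART, 19.5% at MG and 17.5% at GLOB. The OV and MG shares of the members were thus nearer to those of all genes. Among the first 100 members, however, 9% were highest at OV and 24% at MG. These 100 members reach at least 49.5 FPKM, and locus genes of that level were not counted apart. The stage depended on the scale: once all stages were scaled to sum to the same total (the common sum), OV led with 98 members, DS had 84, HEART 63, GLOB 40 and MG 15. Other genes were not counted by stage on that scale, so no share stands beside these counts. The summed FPKM of all genes was smallest at OV and largest at MG, so this scaling raises OV and lowers MG for every gene. Among the 55 members at 100 FPKM or more, 23 were highest at DS and 11 at MG as deposited. The 2626 genes with a locus that reach 100 FPKM were not counted by stage, so no share stands beside these counts either.

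**Figure D1:**
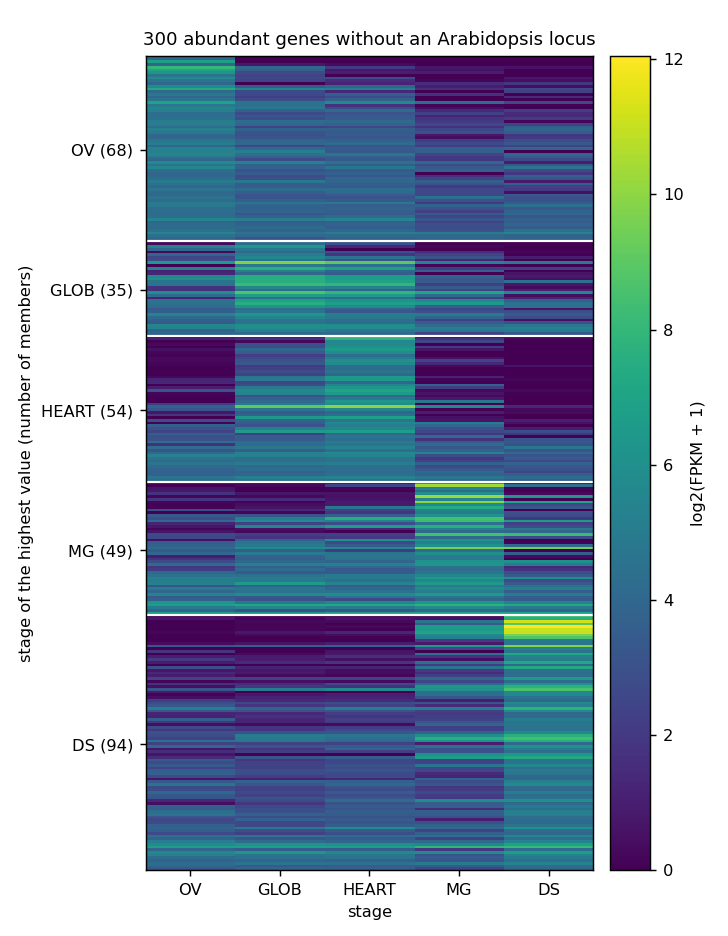
Each row is 1 of the 300 members and each column a stage; colour gives log2(FPKM + 1) of the authors' single value. Rows are grouped by the stage of their highest value, and within a group by the share of their summed FPKM in that stage, so that the stage-restricted genes stand at the top of each block.

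**Figure D2:**
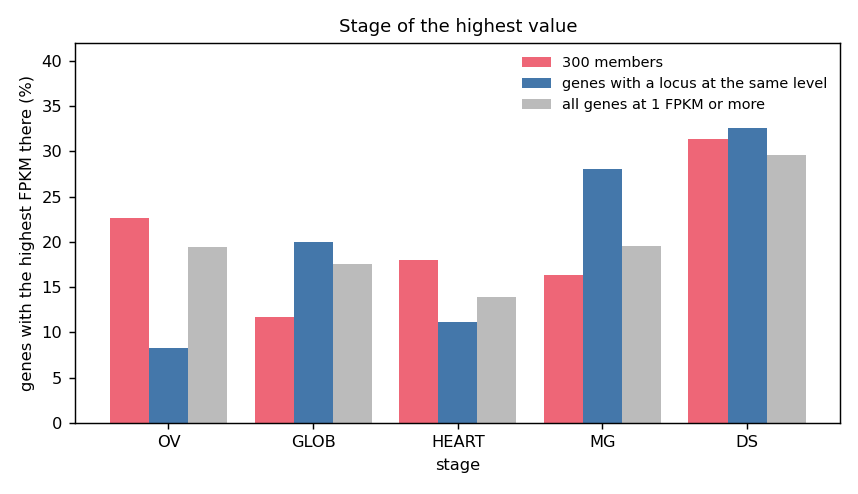
Bars give the percentage of genes whose highest FPKM lies in each stage, for the members, for the locus genes of the same level and for all genes at 1 FPKM or more. The OV bar is 22.7% for the members, 8.26% for the locus genes of the same level and 19.5% for all genes at 1 FPKM or more. The MG bar is 16.3%, 28.0% and 19.5% in that order.

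How far a transcript was restricted to 1 stage was read from the share of its 5 summed FPKM values that the highest stage held. The median share was 50.5% in the members, 41.3% in the locus genes of the same level and 39.9% in all genes at 1 FPKM or more. A share of at least 90% was found in 26 members (8.67%, against 4.15% of the locus genes of the same level). Members at 1 FPKM or more in all 5 stages numbered 167 (55.7%, against 74.3%). By stage of the highest value, the median share was 59.9% for HEART members, 57.5% for DS, 47.4% for MG, 46.7% for GLOB and 41.3% for OV. A value of 0 was listed for 50 members at DS (16.7%, against 3.75% of the locus genes of the same level), 25 at MG, 18 at OV, 14 at GLOB and 13 at HEART. For MG, OV, GLOB and HEART no such share of other genes was computed.

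The members with the highest levels of all were DS transcripts that came from a single conserved neighbourhood. BnaN14g02210, on C chromosome 14, was at 0.0432 FPKM at OV, 0.116 at GLOB, 0.180 at HEART, 95.2 at MG and 4222 at DS. BnaN05g02080, on A chromosome 5, was at 0.0360, 0.162, 0.0478, 94.05 and 2226 FPKM in the same order. BnaN13g23980, on C chromosome 13, was listed at 0 at OV and was at 0.182, 0.222, 23.7 and 2306 FPKM in the later stages. All 3 were low until HEART, entered at MG and were 44.4-fold, 23.7-fold and 97.5-fold higher at DS than at MG. The next gene with a locus on 1 side was in each case one of AT2G41290, and all 3 also had AT2G41300 and AT2G41310 among the 5 locus-bearing genes on either side. The AT2G41290 genes beside them reached 1.30 to 9.67 FPKM in any stage.

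On its other side BnaN14g02210 adjoined BnaN14g02200, which carries AT2G41280, an Arabidopsis gene known as a late embryogenesis abundant (LEA) gene, a class of proteins linked to desiccation. BnaN14g02200 had 11.2 FPKM at MG and 356 at DS. It shares its Darmor identifier with another member, Bna14272s0010 on an unplaced scaffold. That member was listed at 0 at OV, GLOB and HEART, and was at 0.230 FPKM at MG and 320 FPKM at DS. It had the largest rise of any member from MG to DS, 8.03 on the log2(FPKM + 1) scale. The remaining AT2G41280 genes in the table were BnaN14g57980, at 393 FPKM at MG and 3669 at DS, and BnaN04g26880, at 2.53 and 623 FPKM. All 3 locus-bearing AT2G41280 genes were thus highest at DS, as were the 4 members named here.

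BnaN11g37100, on C chromosome 11, was the fourth of the members by level and has neither a locus nor a Darmor identifier. It rose from 1.40 FPKM at HEART to 130.5 at MG and 2091 at DS, after 0.110 at OV and 0.713 at GLOB. It lay between genes carrying AT3G21760 and AT3G21720, the latter the locus of isocitrate lyase, and these neighbours reached at most 0.0594 FPKM. BnaN01g22190 on A chromosome 1 followed the same course, with 0.0168 FPKM at OV, 0.214 at GLOB, 0.360 at HEART, 52.5 at MG and 790 at DS. BnaN08g03820 on A chromosome 8 was already present early, at 8.002 to 12.7 FPKM from OV to HEART, before 84.7 at MG and 894 at DS. Among the 94 DS members, 36 were at least 4 times their next stage (12% of all members, against 6.89% of the locus genes of the same level) and 58 were not (19.3% against 25.7%). The next stage was MG for 47 of the 94 and OV for 28. Here and below, next stages were counted for members only, so no share of other genes stands beside them.

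MG members were led by BnaN19g40740 on C chromosome 19. It was listed at 0 at OV and was at 0.221 FPKM at GLOB, 4.44 at HEART, 1226 at MG and 18.8 at DS. A pair on homoeologous positions came next. BnaN14g48750 on C chromosome 14 was at 0.111, 0.206 and 0.505 FPKM from OV to HEART, at 1149 at MG and at 77.2 at DS, which was the largest rise of any member from HEART to MG (9.58 on the log2(FPKM + 1) scale). BnaN04g18220 on A chromosome 4 was at 0.138, 0.0889, 0.847, 948 and 122 FPKM. Both carry the Darmor identifier BnaC04g39100D, and both lay between genes of AT2G27370, a Casparian strip membrane protein (CASP) gene, and AT1G08340. In OV and GLOB the 3 MG genes were at 0 to 0.0180% of their MG value, and whether such values are above a technical background was not tested.

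BnaN02g41550 on A chromosome 2 stayed high into DS. It rose from 49.2 FPKM at HEART to 751 at MG and 714 at DS, after 17.5 at OV and 52.8 at GLOB. Its neighbours carry AT5G65050 and AT5G65070, MADS-box genes of the family of the flowering repressor FLC, at up to 37.8 and 1.26 FPKM. BnaN18g51040 on C chromosome 18 did not persist. It climbed through 6.34 FPKM at OV, 32.2 at GLOB, 179 at HEART and 372 at MG, and was at 2.91 at DS, the largest fall of any member from MG to DS (-6.57 on the log2(FPKM + 1) scale). Of the 49 MG members, 13 were at least 4 times their next stage, which is 4.33% of all members and near the 4.56% of the locus genes of the same level. The next stage was DS for 17, HEART for 13, OV for 11 and GLOB for 8.

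The most abundant GLOB members were also high at HEART. BnaN13g71410 on C chromosome 13 was at 90.7 FPKM at OV, 847 at GLOB, 503 at HEART, 39.0 at MG and 29.2 at DS. BnaN08g11460 on A chromosome 8 had 59.2, 417, 241, 139 and 47.9 FPKM. BnaN11g12220 on C chromosome 11 had 38.3, 201, 115, 3.45 and 3.51 FPKM, and BnaN01g10060 on A chromosome 1 had 23.8, 191, 123, 9.84 and 19.9 FPKM. These 4 members have 4 different Darmor identifiers and share AT4G19160, AT4G19170 and AT4G19210 among their flanking loci. All 4 were highest at GLOB, with HEART next, and at MG they ranged from 3.45 to 139 FPKM. For 29 of the 35 GLOB members HEART was the next stage, and 18 of the 35 were below 1 FPKM at DS, both counted for members only.

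HEART members had the highest median share in 1 stage, and some were found there almost alone. BnaN13g33460 on C chromosome 13 was at 0.0883 FPKM at OV, 0.186 at GLOB and 278 at HEART, and was listed at 0 at MG and DS. It had both the largest rise from GLOB to HEART (7.88 on the log2(FPKM + 1) scale) and the largest fall from HEART to MG (-8.13). BnaN06g08530 on A chromosome 6 was at 1.02, 1.94, 227, 2.30 and 0.136 FPKM. BnaN09g14770 on A chromosome 9 was the most abundant HEART member and was broader, at 13.5 FPKM at OV, 526 at GLOB, 957 at HEART, 50.7 at MG and 1.41 at DS. BnaN09g38000 on A chromosome 9 had the largest rise from OV to GLOB, from a listed 0 to 85.9 FPKM, with 110 at HEART, 0.448 at MG and 0 at DS.

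A transient HEART course recurred across the group. Of the 54 HEART members, 24 were below 1 FPKM in both OV and DS, which is 8% of the members against 2.08% of the locus genes of the same level. In 15 members MG was below 1 FPKM as well (5% against 1.15%). They were spread over the genome, with 8 on A and 7 on C chromosomes. A set of 5 HEART members lay at positions that share AT3G17020 and AT3G17060 on chromosomes 1, 3, 5, 13 and 15. BnaN01g31970 was at 7.58 FPKM at OV, 48.7 at GLOB, 131 at HEART, 0.206 at MG and 0.186 at DS, and BnaN15g43160 was at 84.4, BnaN05g26560 at 58.0, BnaN13g42460 at 44.0 and BnaN03g34640 at 20.6 FPKM at HEART. In MG and DS none of the 5 exceeded 0.218 FPKM. The loss by MG was common to all 5 members, while their HEART levels covered more than a 6-fold range.

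The leading OV members fell from OV to GLOB. BnaN03g00720 on A chromosome 3 was at 258 FPKM at OV, 14.8 at GLOB, 3.02 at HEART, 0.648 at MG and 0.493 at DS. Its counterpart BnaN13g00980 on C chromosome 13 was at 129, 11.5, 0.689, 0.522 and 0 FPKM. Both carry the Darmor identifier BnaC03g00840D and lie between genes of AT5G02550 and AT5G02590. BnaN13g80060 on C chromosome 13, which has no Darmor identifier, was at 159 FPKM at OV, 43.4 at GLOB, 33.0 at HEART, 2.05 at MG and 5.10 at DS. BnaN06g35520 on A chromosome 6 was at 127, 24.8, 54.2, 18.4 and 5.13 FPKM. BnaN06g38710 on A chromosome 6 had 110 FPKM at OV and 0 listed for every later stage, the largest fall of any member from OV to GLOB (-6.80 on the log2(FPKM + 1) scale). The same course was seen in BnaN12g19160 (26.9 FPKM at OV) and BnaN14g52640 (16.0 FPKM at OV), both named after their values were seen. Most of the 68 OV members were less restricted: 11 were at least 4 times their next stage (3.67% of all members, against 1.03% of the locus genes of the same level). The median of the OV members was 22.8 FPKM at OV, 11.1 at GLOB, 11 at HEART, 3.801 at MG and 4.55 at DS.

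**Figure D3:**
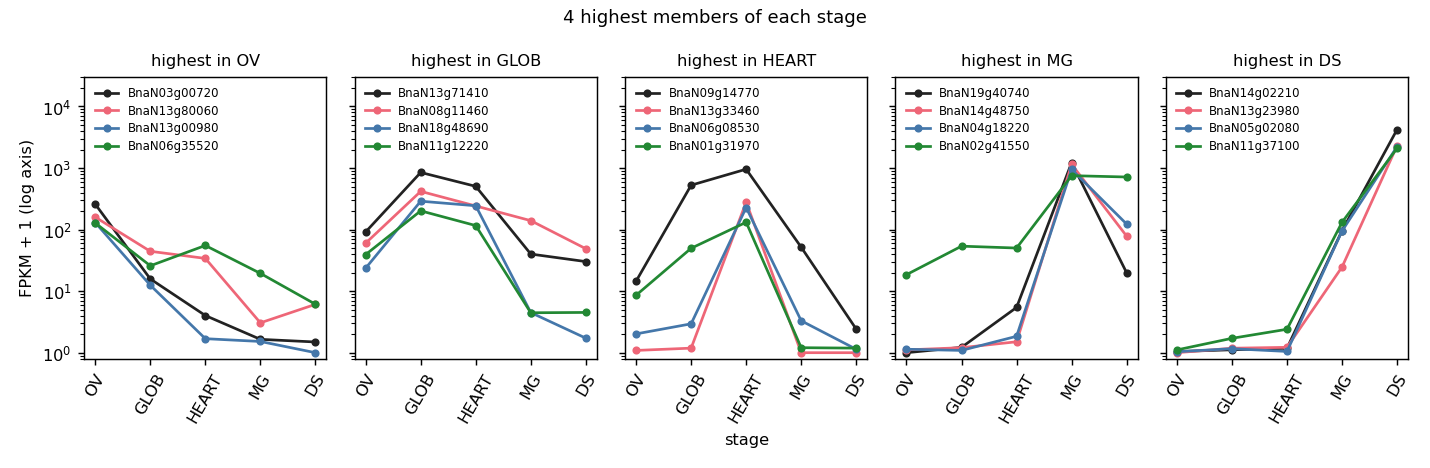
Each panel shows the 4 members with the highest FPKM among those highest in that stage, as FPKM + 1 on a log axis against stage, 1 line per gene and 1 authors' value per point. DS members rise over MG and DS from near 0, the GLOB members run at similar levels through HEART, and BnaN13g33460 stands at 278 FPKM at HEART alone.

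Few members were even. In 6 members (2.00%, against 6.42% of the locus genes of the same level) the highest stage was less than 2 times the lowest. Evenness was also read from the share of the summed FPKM in the highest stage, and the 5 members with the lowest share were named. The lowest, 22.7%, was that of BnaN09g48510 on A chromosome 9, at 113 FPKM at OV, 79.4 at GLOB, 118 at HEART, 128 at MG and 127 at DS. BnaN18g42970 on C chromosome 18, with the same Darmor identifier, was at 77.3, 28.5, 45.4, 80.1 and 39.6 FPKM. BnaN06g40320 on A chromosome 6 was at 20.8, 16.6, 16.7, 17.2 and 13.6 FPKM. BnaN14g02090, Bna03593s0010 and BnaN14g01580 completed the 5 of lowest share but were not within 2-fold, each lying between 7.47 and 44.0 FPKM in all stages.

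Each stage was set against the one before it as a difference of log2(FPKM + 1), and a difference of at least 1 was counted as higher or lower. The members were chosen by their levels in these same columns, so the counts are descriptions. From OV to GLOB, 86 members (28.7%) were higher and 54 (18.0%) lower, beside 26.2% and 8.37% of the locus genes of the same level and 15.8% and 11% of all genes at 1 FPKM or more. From GLOB to HEART, 46 members (15.3%) were higher and 23 (7.67%) lower, beside 5.16% and 3.06% of the locus genes of the same level and 4.89% and 2.5% of all. At MG, 71 members (23.7%) stood higher than at HEART and 123 (41.0%) lower, beside 30.1% and 23.4% of the locus genes of the same level and 17.4% and 22.4% of all. At DS, 100 members (33.3%) stood higher than at MG and 80 (26.7%) lower, beside 22.4% and 33.5% of the locus genes of the same level and 19% and 21.3% of all. As deposited, more members fell than rose into MG and more rose than fell into DS, whereas among the locus genes of the same level more rose into MG and more fell into DS. Both orders turned in the first 100 members, of which 39% were higher and 34% lower into MG, and 28% higher and 34% lower into DS. Locus genes of the level of those 100 were not counted apart. In the first 1000 the order turned for the step into GLOB, with 16.4% higher and 18.7% lower. On a common sum, the median difference of all genes was -0.32 for the step into GLOB, 0.08 into HEART, -0.98 into MG and 0.27 into DS. There 69 members were higher and 94 lower in the step into GLOB, 54 and 22 into HEART, 46 and 190 into MG and 129 and 58 into DS. Relative to those shifts the numbers were 80 and 71, 48 and 23, 63 and 127, and 114 and 71. On the common sum without that correction, more members were thus lower than higher in the step into GLOB.

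Read over all 4 steps, 55 different courses were found, and 19 of them had a single member. The most frequent was no change until MG and a rise into DS, in 28 members (9.33%, against 9.69% of the locus genes of the same level, so near the background). A rise from HEART to MG with a further rise into DS was found in 24 members (8% against 4.93%). A fall from HEART to MG that was followed by a rise into DS was found in 22 members (7.33%, against 1.43% of the locus genes of the same level). In 22 members no step reached the threshold (7.33% against 15.2%). Rises in both GLOB and HEART followed by a fall into MG and no further change were found in 15 members (5% against 0.787%).

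The members held 1.15% of the summed FPKM of all genes at OV, 1.23% at GLOB, 1.496% at HEART, 0.727% at MG and 2.39% at DS. MG was thus the stage in which they weighed least, although their own sum rose from 8885 FPKM at HEART to 10984 at MG. In DS they summed to 21826 FPKM, of which the 10 highest held 66.6% and BnaN14g02210 alone 19.3%. In OV the 10 highest held 25%. The median member was at 11.1 FPKM at OV, 10.6 at GLOB, 12.2 at HEART, 7.11 at MG and 10.3 at DS.

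The DH12075 identifier holds a chromosome number, numbers 1 to 10 being A and 11 to 19 C by the letter that most Darmor identifiers there carry. On A chromosomes lay 128 members (42.7%), on C chromosomes 166 (55.3%), and 6 were unplaced. Of the 294 placed members, 56.5% were on C, beside 56.0% of all placed genes, 48.8% of the placed locus genes of the same level and 70.2% of all placed genes without a locus. The members were therefore split like the whole table, and lay between the other sets. Chromosome 13 held the largest number, 25, and is also the one with the most genes. Per 1000 annotated genes the members ranged from 1.83 on chromosome 7 to 4.21 on chromosome 12, with 3.19 over all placed genes. C chromosomes held 54.1% of the FPKM of placed members at OV, 51.1% at GLOB, 49.6% at HEART, 56.3% at MG and 58.3% at DS. For all placed genes the C share was between 48.0% and 50.1%. At DS, BnaN14g02210 and BnaN13g23980 are among the C genes.

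**Figure D4:**
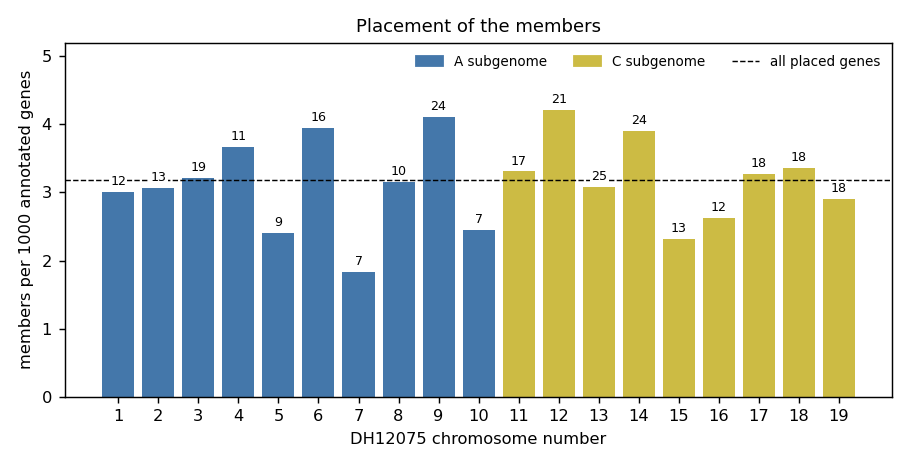
Bars give the number of members per 1000 annotated genes of each DH12075 chromosome, with the number of members above each bar and colour by subgenome. The dashed line is the value over all placed genes, 3.19; bars run from 1.83 to 4.21.

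A Darmor identifier was paired with 253 members (84.3%). This compares with 75.2% of all genes without a locus, 99.2% of the locus genes of the same level and 95.3% of the whole table. The 47 members without one had a lower median highest value (24.3 against 34.3 FPKM), and 18 of them were highest at OV, 15 at DS, 8 at MG, 5 at HEART and 1 at GLOB. After BnaN11g37100, the most abundant of them were BnaN15g49470, at 360 FPKM at MG and 304 at DS, and BnaN13g29710, at 308 FPKM at MG. Darmor letter and DH12075 subgenome were the same in 192 of the 244 members that have both (78.7%). This is near the 79.04% of all genes without a locus, beside 84.7% of the whole table and 90.03% of the locus genes of the same level. In 28 members an A gene was paired with a C identifier and in 24 a C gene with an A identifier. Of these 52 members, 51 have an identifier with a Darmor chromosome number, and in 20 of them it was the same number on the other subgenome.

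The label itself was checked through these identifiers. The 253 members carry 228 Darmor identifiers, and 25 of these identifiers are also carried by a gene that does have an Arabidopsis locus. BnaN01g30970, at 32.9 FPKM at HEART, shares its identifier with Bna22212s0010, which carries AT2G05642 and had 146 FPKM at HEART. For 25 members, then, the absence of a locus does not extend to every gene of the same Darmor identifier. Outside the members, 112 further genes carry their identifiers, and 61 of these reached 1 FPKM, a share near the 51.4% of the whole table. The sources do not say how a read that fits several close copies was counted, so the value of a single copy is uncertain.

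Where several members carry 1 Darmor identifier, they usually had the same stage. The 22 shared identifiers gave 25 pairs of each further copy with the most abundant one, and in 21 pairs both were highest in the same stage. An A and a C copy formed 17 of these pairs, of which 15 had the same stage (88.2%). Pairs of locus genes of the same level with 1 A and 1 C copy had the same stage in 74.6% of 1012. The A copy was the higher one in 9 pairs and the C copy in 8, and the median ratio of the higher to the lower was 1.90. The most unequal pair of these was that of BnaC04g56050D, with BnaN05g18540 on A chromosome 5 at 222 FPKM at DS and BnaN17g53950 on C chromosome 17 at 17.8 FPKM, a ratio of 12.4. BnaN08g10280 and BnaN18g13760 were closer, at 58.4 and 41.9 FPKM at MG, with at most 2.84 FPKM in any other stage. The pair of BnaC04g56050D shares 0 flanking loci. Flanking loci were shared by 17 of all 25 pairs, which are not the same 17 as the A and C pairs. They include BnaN17g42010 and BnaN17g42000, which lie next to each other on C chromosome 17 and so share flanking loci by construction. Where none are shared, a pair is matched by its identifier only.

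**Figure D5:**
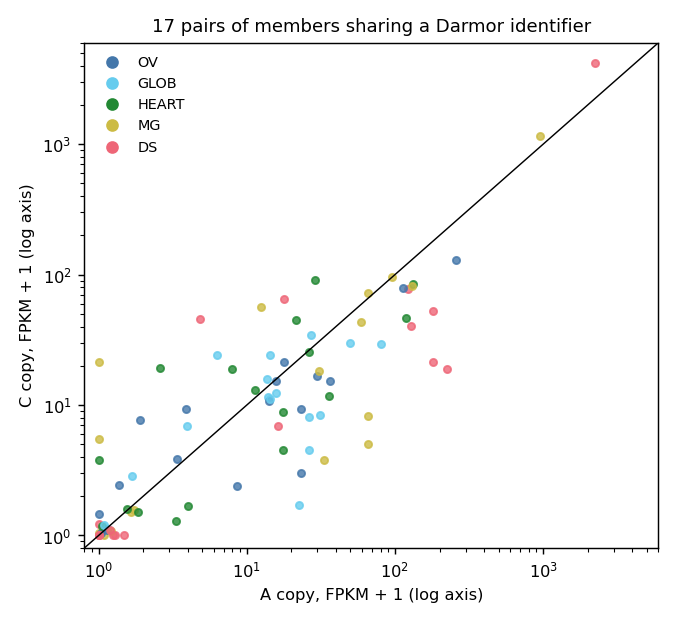
Each point is 1 stage of 1 of the 17 pairs of members with the same Darmor identifier, with the FPKM + 1 of the A copy on the x axis and of the C copy on the y axis, both log axes. Points lie on both sides of the line of equal values, with 9 pairs higher on A and 8 higher on C at their highest stage.

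Because Darmor identifiers separate many copies, members were also linked by position, when at least 3 Arabidopsis loci were common to the 10 nearest locus-bearing genes of members on different chromosomes. This comparison was added after the values were seen. It placed 75 of the 294 placed members in 30 groups, of which 21 have 2 members and the largest 5. In 16 groups all members were highest in the same stage. Of the 60 linked pairs, 39 (65.0%) had the same stage. Among 9769 pairs of locus genes of the same level that share a locus and 3 further flanking loci, 66.3% did. Member pairs were linked by flanking loci only, without a check that both are copies of the same gene. BnaN12g44140, for example, was paired with both BnaN02g37360 and BnaN02g37400, which carry different Darmor identifiers. The 2 percentages thus describe different kinds of pair and cannot be set against each other. Of the 60 pairs, 17 share a Darmor identifier and 43 do not.

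Some positional groups held different stages. BnaN18g48690 and BnaN18g20300, both on C chromosome 18, were highest at GLOB at 288 and 107 FPKM, with 243 and 91.2 at HEART. The members linked to them on A chromosomes, BnaN06g08530 and BnaN08g27600, were highest at HEART, at 227 and 76.0 FPKM, with 1.94 and 28.6 at GLOB. All 4 share AT1G12110, the nitrate transporter NRT1, and AT1G12070 as flanking loci. At the position of AT4G29020 and AT4G29035, BnaN03g50700 on A chromosome 3 was at 39.6 FPKM at OV, 83.2 at GLOB and 1.49 at HEART, the largest fall of any member in that step (-5.08 on the log2(FPKM + 1) scale). BnaN01g07990 on A chromosome 1 and BnaN11g09660 on C chromosome 11, at the same position, were highest at OV, at 28.6 and 15.6 FPKM. By contrast BnaN12g06600, BnaN13g08090 and BnaN02g06330, near AT5G16830 and AT5G16840, were all highest at HEART, at 90.5, 47.2 and 27.8 FPKM, and listed at 0 at DS.

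Some members lay close together. With identifiers at most 50 apart in serial number, 24 members (8%) formed 11 runs, 9 of them of 2 members. The same share was not computed for other genes or for random positions, so 8% cannot be called low or high. The longest runs had 3. On C chromosome 12, BnaN12g44140 was at 108 FPKM at OV, 103 at GLOB, 106 at HEART, 235 at MG and 264 at DS. Next to it, BnaN12g44160 and BnaN12g44170, which share a Darmor identifier, reached 51.6 and 20.2 FPKM at DS. On A chromosome 2 the same flanking loci hold BnaN02g37360, at 105.7, 150.4, 143, 223 and 154.5 FPKM, and BnaN02g37400, at 180 FPKM at DS. The other run of 3, on C chromosome 17, joined BnaN17g42000 and BnaN17g42010, highest at GLOB at 16.2 and 34.2 FPKM, with BnaN17g42030, highest at DS at 104 FPKM. In 5 of the 11 runs all members had the same stage.

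The nearest locus-bearing genes on both sides came from 1 stretch of an Arabidopsis chromosome, within 200 in locus number, for 133 of 294 members (45.2%), beside 63.5% of the locus genes of the same level. Of the flanking genes that reached 1 FPKM, 30.8% had their highest stage in common with the member (101 of 328), and 24.8% did so beside locus genes of the same level.

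In the RefSeq gene table of cultivar Da-Ae, 6 of the members' Darmor identifiers were found as symbols, all of protein-coding genes. The most abundant was BnaN17g53800 on C chromosome 17, at 73.4 FPKM at OV, 5.85 at GLOB, 0.994 at HEART, 0.863 at MG and 0 at DS. BnaN19g40590 was highest at OV at 43.1 FPKM, BnaN12g26610 at GLOB at 42.3, BnaN14g45180 at HEART at 35.7, BnaN01g30970 at HEART at 32.9 and BnaN18g00590 at MG at 18.2. The match adds no gene name and no function to these members.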

How the data were processed

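PolyA RNA of 14 libraries from 5 stages was sequenced as single-end reads of 100 bases, per the labels and the series' design text, which also names Trimmomatic 0.36, HiSat2 with the DH12075 genome, Cuffquant and Cuffdiff. The submitters' processing notes list TopHat2, Cuffnorm and Cuffdiff instead, and which made the table is not stated. The authors deposited FPKM values, 1 per gene and stage. How the libraries of a stage were merged, which gene annotation was used and how libraries were scaled are not given in the sources used here. Another 2 columns match no sample described here and were not used.

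From these values, log2(FPKM + 1) differences, stages of highest value and identifier matches were computed with Python 3.11.15, pandas 2.3.3 and numpy 2.4.6. A threshold of 1 on that scale understates changes of low genes. An exact 0 can be a failed estimate. No test was run: the planned limma fit needs values per library. The members, comparisons and lists were chosen with earlier results of these data known. Named members are the 12 highest, the 4 highest of each stage, the largest rise and fall of each step, those at the limit of the list, in the longest runs or with a RefSeq protein, and the 5 with the lowest share of their sum in the highest stage. Others were named in the positional, pair and Darmor comparisons after their values were seen. Classes by product description could not be applied, since no product names were used here. Counting was run on simulated data with 4474 genes, all taken from genes at 10 FPKM or more in every stage. All 100 raised and 100 lowered genes were recovered, and 0 unchanged genes were counted. The planted changes were far above the threshold and the noise was small, so these settings fixed the outcome. The run checks the code only and not how reliable the counts are. Of the members, 40 were at 10 FPKM or more in all 5 stages.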

Additional observations from a re-analysis of the deposited data

How the results depend on the processing

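No paired analysis was possible because each stage has a single deposited value, with no libraries shown apart, and leaving out replicates was not run for the same reason. Of 98 alternative values, 78 stayed within 1.5 times of the reported one and 20 moved further. Taking the first 100 members gave 44% higher into GLOB, 24% higher into HEART, 39% higher and 34% lower into MG, 28% higher and 34% lower into DS (both orders turned), 9% highest in OV and 0.586% of the summed FPKM of OV. Taking the first 1000 gave 16.4% higher and 18.7% lower into GLOB (order turned), 5.10% lower into HEART, 14.1% higher into MG, 17.6% lower into DS, 3.90% unplaced and 15.1% in runs of neighbours. Lower members enter there by construction. A common sum gave 31.3% lower into GLOB, 15.3% higher and 63.3% lower into MG, and 5% highest in MG. By Darmor letter 17% had no subgenome. With a mean FPKM of at least 5, fewer genes were there to be counted, and the genes counted as changed in the background were 6990 for the step into GLOB, 1472 into HEART, 10687 into MG and 11395 into DS. The pseudocount of 0.1, the median of ratios and the serial distances of 10 and 100 moved no value by more than 1.5 times. Leaving out the filter could not change a count. A gene below 1 FPKM in every stage cannot differ by 1 on the log2(FPKM + 1) scale. The values without a filter are among the 78 and say nothing about robustness. Depth limits every value to an unknown degree, since no counts were given.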
